A study of Mus musculus with 3 samples.

Results

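Mitochondrial ribosomal proteins were examined in the embryonic region of wild-type mouse embryos at the early head-fold (EHF) stage. Members were the rows of the deposited table whose gene symbol starts with *Mrpl* or *Mrps* followed by a number. This rule gave 73 of 30854 gene symbols, 45 *Mrpl* and 28 *Mrps*, and all of them were measured on each of 3 Illumina Mouse-6 arrays. The 3 arrays, labelled replicates 1, 2, and 3, form a single group. No mutant, treatment, or second stage was hybridized, so every value below describes a level and not a response.

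The labels give the strain as CD-1, whereas the methods of the study name ICR and also another RNA extraction reagent. An array may hold RNA of a single embryo or of several, because the labels speak of 3 samples per well in triplicate without saying what a sample was. The error between arrays may therefore be technical or biological. For each symbol the authors deposited a log2 signal, the number of beads, a standard error over beads, and a detection p, the share of negative-control probes at least as bright. The 3 arrays had 9015, 8220, and 7191 symbols with a detection p under 0.01, fewest on replicate 3. On every array 20.6% of all symbols passed. Of 14 markers of the embryonic region 9 passed this threshold on every array, among them *T*, *Otx2*, and *Pou5f1*. *Foxa2*, *Hesx1*, *Six3*, *Sox2*, and *Hand1* did not. Of these, *Sox2* and *Hand1* passed on replicates 1 and 2, *Six3* on replicate 1, and *Foxa2* on replicate 2. Visceral endoderm was represented by 13 of 14 markers, *Apoc2* among them. The paper describes visceral endoderm cells as scattered among definitive endoderm in the embryonic region by this stage. It also describes an even cover of such cells over the primitive streak. In the extraembryonic region it describes a uniform layer, and there alone it saw *Apoc2* transcripts at head-fold stages. The source of these marker signals was not tested. Of 11 markers listed for extraembryonic ectoderm 5 passed, namely *Cdx2*, *Rhox5*, *Ets2*, *Bmp4*, and *Tfap2c*, whereas *Elf5*, *Eomes*, *Ascl2*, and *Gcm1* passed on no array.

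The mitochondrial ribosome, or mitoribosome, translates the few mRNAs made from mitochondrial DNA, all of which encode membrane proteins of oxidative phosphorylation. Its rRNAs come from the mitochondrial genome, but every one of its proteins is encoded in the nucleus, made in the cytosol, and imported. It descends from a bacterial ribosome, has lost part of the bacterial rRNA, and has gained many proteins that bacteria lack. Proteins of the small subunit bind the mRNA and decode it, and proteins of the large subunit surround the peptidyl transferase centre and the tunnel through which the new chain leaves.

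Most of these genes were expressed above background. On every array, 55 of the 73 members (75.3%) had a detection p under 0.01, against 20.6% of all symbols. A further 7 passed on 2 arrays, 4 on 1 array, and 7 on no array, where 67% of all symbols passed on none. Replicates 1 and 2 each detected 64 members, and replicate 3 detected 55. The level of each gene was then expressed relative to its array's background, after background correction and quantile normalization, and limma was used to test, one-sided, whether it exceeded 0, with Benjamini-Hochberg adjustment over all symbols. In that test 66 members were above background, against 25.8% of all symbols. The median level of the members was 3.78 above background on the log2 scale, where the median of all symbols was -0.42. It was 3.85, 3.77, and 3.50 on replicates 1, 2, and 3. The signals of different probes are not on a common scale, so these levels rank brightness and not the number of transcripts.

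**Figure D1:**
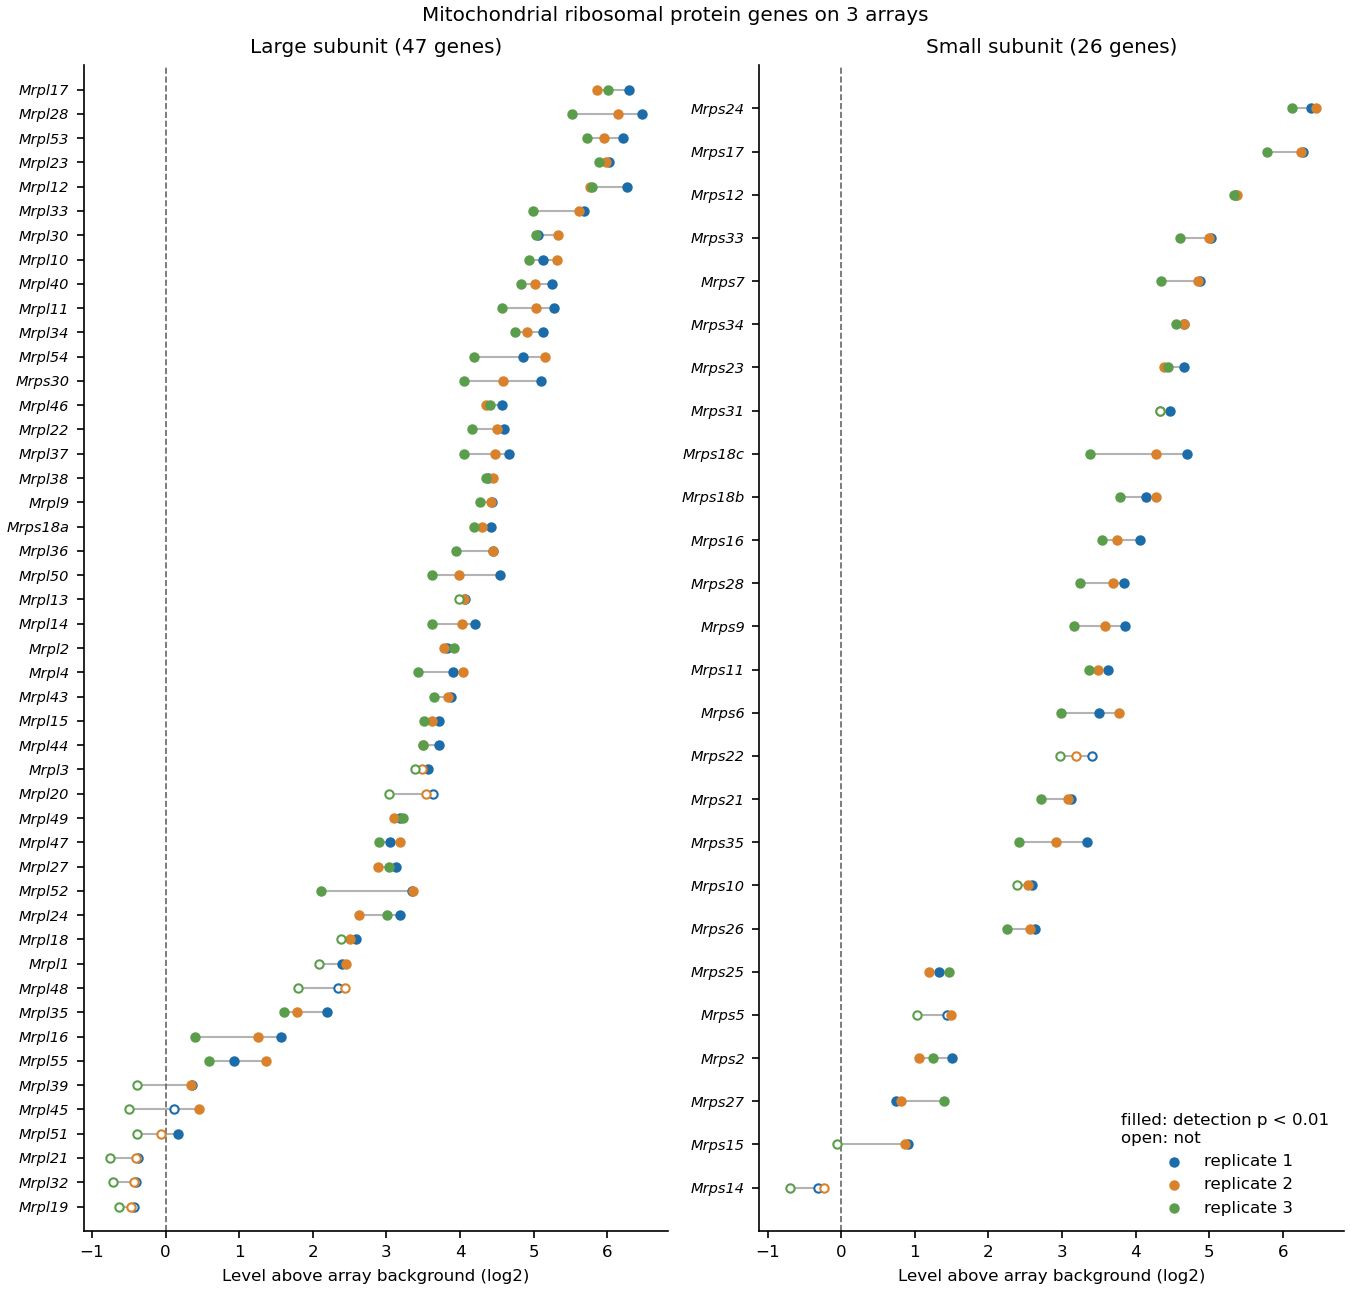
Level above the array background (log2) of the 73 members on 3 arrays, split by the subunit in which the protein sits. Points are single arrays, open where the detection p was 0.01 or more, and bars span the arrays; most genes lie between 2 and 6, whereas 5 lie below 0 on average.

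Both subunits were represented to a similar extent. By current structures 47 of the members encode proteins of the large subunit and 26 proteins of the small subunit. These include *Mrps30* and *Mrps18a* in the large subunit despite their symbols. Of the large subunit genes 35 were detected on all arrays (74.5%), and of the small subunit genes 20 (76.9%). Median levels above background were 3.84 and 3.51 on the log2 scale. Genes for proteins with a bacterial counterpart were detected in 33 of 45 cases and had a median level of 3.61. For the proteins classed as without a counterpart, *Mrps18a* and *Mrps18b* among them, the count was 22 of 28 and the median 3.92. No test was made between these classes, since genes are not replicates of a class.

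The brightest signals of the small subunit came from genes for 3 conserved proteins. *Mrps24*, whose product lies where the mRNA enters, gave 11.38, 11.42, and 10.87 (log2 signal, here and below in the order of the replicates). Its level was 6.32 ± 0.17 above background (SD, n = 3). *Mrps17*, a core rRNA-binding protein, had signals of 11.30, 11.20, and 10.52 and a level of 6.10 ± 0.27. *Mrps12*, which encodes a protein of the decoding centre, was measured by 2 probes and had signals of 10.44, 10.35, and 10.12. Its level above background was nearly the same on each array, at 5.36, 5.37, and 5.34. The 3 genes were thus bright on every array. Before normalization replicate 3 was the lowest, as it was for the median of all symbols (6.57, 6.51, and 6.42).

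In the large subunit the 12 brightest members included 9 genes. *Mrpl17* had log2 signals of 11.31, 10.82, and 10.75, and *Mrpl28* of 11.46, 11.10, and 10.30. Their levels were 6.06 ± 0.22 and 6.04 ± 0.48 above background (SD, n = 3), so that *Mrpl28* varied more between arrays. *Mrpl53*, which bacteria lack, followed with 5.97 ± 0.24. *Mrpl23*, a protein at the tunnel exit, had signals of 11.06, 10.95, and 10.61 and a level of 5.96 ± 0.07. *Mrpl12* and *Mrpl10* encode parts of the stalk that recruits translation factors. *Mrpl12* had signals of 11.29, 10.73, and 10.53 and a level of 5.94 ± 0.29. *Mrpl10*, with 2 probes, had signals of 10.21, 10.30, and 9.73 and a level of 5.13 ± 0.19. The other 3 were *Mrpl33* at 5.43 ± 0.38, *Mrpl30* at 5.14 ± 0.16, and *Mrpl40* at 5.03 ± 0.21. Over all 55 detected members the level ran from 0.96 for *Mrpl55* to 6.32 for *Mrps24*, with a median of 4.12.

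*Mrps18a*, *Mrps18b*, and *Mrps18c* are 3 relatives of a single bacterial gene, whose products occupy different places in the mitoribosome. *Mrps18c* is the counterpart in position, and *Mrps18a* belongs to the large subunit. All were detected on every array. *Mrps18a* had log2 signals of 9.57, 9.35, and 9.07 and a level of 4.30 ± 0.12 above background. *Mrps18b*, with 3 probes, had signals of 9.32, 9.33, and 8.71 and a level of 4.07 ± 0.25. *Mrps18c* had signals of 9.82, 9.33, and 8.38 and a level of 4.12 ± 0.67. All 3 gave their lowest signal on replicate 3, where the median signal of all symbols was also lowest. Among the 3, *Mrps18c* varied most between arrays.

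Not all members passed. Among the 18 that were not detected on all 3 arrays, a small set was at background by every measure. *Mrpl32*, whose product needs cleavage by a mitochondrial protease before it is built into the large subunit, had log2 signals of 6.47, 6.48, and 6.38. Its detection p was 0.707, 0.402, and 0.531. *Mrpl21* had signals of 6.50, 6.50, and 6.35 and detection p-values of 0.564, 0.310, and 0.681. *Mrps14*, a small subunit gene, had 6.54, 6.57, and 6.38 with detection p-values of 0.335, 0.0673, and 0.490. Each of these 3 was read by a single probe, which lay within the range of the negative controls on each array. *Mrpl19*, with 2 probes, had 6.44, 6.45, and 6.42, and its detection p was 0.942, 0.560, and 0.252. A probe at background sets no limit on the transcript itself, because whether these probes report their genes was not tested.

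Several further genes lay at the edge of detection. *Mrpl39*, with 1 probe, had log2 signals of 6.83, 6.77, and 6.50 and passed on replicates 1 and 2, with a detection p of 0.0705 on replicate 3. Its level was 0.11 ± 0.42 above background and did not pass limma (adjusted p = 0.829). *Mrpl45*, whose product ties the ribosome to the inner membrane, had signals of 6.74, 6.81, and 6.47 and passed on replicate 2 only. *Mrpl51* had 6.76, 6.63, and 6.50 and passed on replicate 1 only. Levels of *Mrpl45* and *Mrpl51* were 0.02 ± 0.48 and -0.09 ± 0.28, and neither passed limma. *Mrps15* was at 7.07, 6.97, and 6.57 and at background on replicate 3. With a level of 0.57 ± 0.55 it was the lowest member to pass limma (adjusted p = 0.00016), and its adjusted p reached 0.120 among the alternatives. In all 4 genes replicate 3 gave the lowest signal, as it did for the median of all symbols.

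The remaining 10 were above background by limma but failed the detection threshold. All of them were read by more than 1 probe, as were 1768 of the 1884 such symbols among all symbols. The deposited detection p of such a symbol lay on the values that a sum of its probes' own p-values would give, so that the sum could be recovered in steps of 1 in 936. *Mrpl20*, a large subunit gene with 2 probes, had log2 signals of 8.90, 8.69, and 8.11 and a level of 3.40 ± 0.32 above background. Its detection p was nevertheless 0.374, 0.340, and 0.196. The recovered sums were 0.864, 0.825, and 0.626, so that at least 1 of its 2 probes was well within the negative controls on each array. *Mrps22*, a small subunit gene that bacteria lack, showed the same with signals of 8.71, 8.42, and 8.06 and sums of 0.433, 0.740, and 0.683. *Mrpl48*, with 5 probes, had signals of 7.90, 7.85, and 7.29 and sums of 1.33, 1.06, and 1.25. These 3 genes passed on no array, although all passed limma.

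In the other 7 the sum of the probes' p-values differed between arrays. *Mrps31*, with 4 probes, had log2 signals of 9.62, 9.39, and 9.19, and its sums were 0.129, 0.0844, and 0.866. *Mrpl13* had signals of 9.25, 9.15, and 8.89 and sums of 0.342, 0.278, and 0.785. *Mrpl3*, which encodes a protein close to the catalytic centre, had 8.85, 8.65, and 8.38 and sums of 0.0491, 0.689, and 0.403. Replicate 3 carried the highest sum for the first pair, and replicate 2 for *Mrpl3*. *Mrpl1*, part of the stalk on the side where tRNAs leave, had 7.94, 7.86, and 7.45 and sums of 0.00748, 0.0203, and 0.721. *Mrpl18*, whose product sits in the central protuberance, had 8.08, 7.90, and 7.65 and sums of 0.0791, 0.00748, and 0.885. *Mrps10* had 8.08, 7.92, and 7.66 and sums of 0.587, 0.194, and 0.745. *Mrps5* had 7.34, 7.28, and 6.91 and sums of 0.437, 0.0267, and 0.245. Thus *Mrpl1*, *Mrpl18*, *Mrps10*, *Mrps31*, and *Mrpl13* failed on replicate 3 alone, *Mrpl3* on replicates 2 and 3, and *Mrps5* on replicates 1 and 3.

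**Figure D2:**
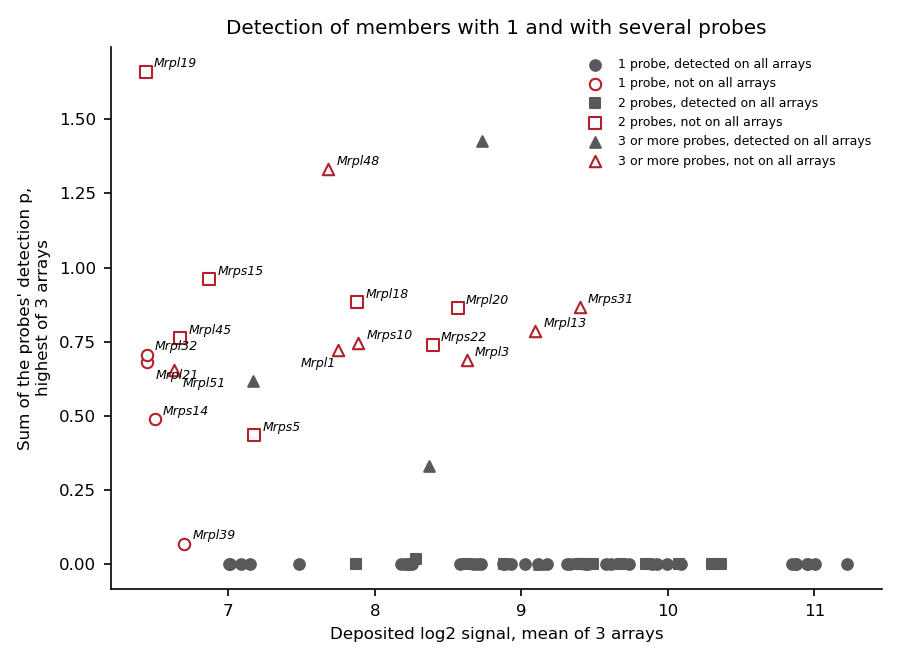
Mean deposited log2 signal of each member against the sum of its probes' detection p-values on the array where that sum was highest. Filled symbols were detected on all 3 arrays and open red symbols were not; all single-probe genes that failed have log2 signals under 7, whereas *Mrpl20*, *Mrpl13*, and *Mrps31* failed with signals of 8.56, 9.10, and 9.40.

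Calls differed with the number of probes. Of 42 members with 1 probe 38 were detected on all arrays (90.5%), and of 31 with several probes 17 (54.8%). Among all symbols the shares were 20.9% and 19.9%. In 13 of the 31 members with several probes every probe was under 0.01 on all arrays. At least 1 probe was over 0.01 on some array in 17, and of these *Mrpl15*, *Mrpl49*, and *Mrps25* were still called. *Mrpl15*, with 7 probes, was called although its sums were 0.262, 0.859, and 1.43. Among the members above background by limma, 11 of 66 (16.7%) were not detected on all arrays, and all 11 had several probes. They were 39.3% of the 28 members past limma with several probes. Of the 1884 such symbols among all symbols, 1768 had several probes. Symbols past limma but not detected made up 6.11% of all symbols. The same held for 23.7% of all symbols past limma, and for 52.1% of those with several probes. Which transcripts the separate probes read was not analysed here, since the values were deposited as 1 row per symbol.

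Most members changed little from array to array. Among the 55 detected members the SD of the normalized level over arrays had a median of 0.15 on the log2 scale, and it was 0.17 over all 6357 detected symbols. The SD ranged from 0.03 for *Mrps26* to 0.55 for *Mrps27*. For the 38 detected members with 1 probe, the standard error over beads had a median of 0.12 in log2 units before quantile normalization. In 24 of them the SD over arrays exceeded the largest of the 3 bead errors. That SD was taken after quantile normalization, so the count sets values from different steps side by side. One member had a range over 1, against 1.89% of all detected symbols.

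That member was *Mrps27*, which encodes an RNA-binding protein of the small subunit. It had log2 signals of 6.996, 6.95, and 7.07, and its normalized levels were 5.43, 5.62, and 6.46. The deposited signals were nearly flat, and the higher value on replicate 3 appeared with the normalization, after which the background level of that array was also the highest (4.69, 4.81, and 5.06). *Mrpl52*, a large subunit gene that bacteria lack, went the other way with signals of 8.67, 8.56, and 7.48 and normalized levels of 8.04, 8.17, and 7.18. Its bead errors were 0.12, 0.13, and 0.22, so that replicate 3 was low by more than the error of its beads. *Mrps18c* had normalized levels of 9.39, 9.08, and 8.44, and *Mrps30* of 9.80, 9.39, and 9.12, both highest on replicate 1 and lowest on replicate 3. *Mrpl16* had 6.26, 6.07, and 5.46. *Mrpl54* was highest on replicate 2, with 9.55, 9.97, and 9.25. *Mrpl45* and *Mrps15*, described above, complete the 8 members with the largest range, at 0.70 and 0.67. No test can be made for a single array, since each was hybridized once.

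As a group the members followed the arrays. Before normalization, with each array centred on its median, members differed from the other arrays by a median of 0.25, 0.08, and -0.32 in the order of the replicates. On replicate 3, 69 of the 73 were lower. So were 53 of the 55 detected members and 5877 of all 6357 detected symbols. For the 55 detected members the differences were 0.29, 0.08, and -0.41, beside 0.22, 0.05, and -0.26 for all detected symbols. The 66 genes of cytosolic ribosomal proteins differed by 0.28, 0.09, and -0.33, and no test was made between these groups. After normalization the members' differences were -0.03, 0.01, and -0.04, and 23 of the 55 detected members had their lowest level on replicate 3, against 34% of all detected symbols. Markers of cell types gave other values. The 14 visceral endoderm markers were higher on replicate 2 by 0.56 and lower on replicate 3 by a median difference of -0.24 after normalization. The 14 embryonic region markers differed by 0.10, -0.13, and -0.09. The part of these differences between arrays in the levels of single members was not tested.

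**Figure D3:**
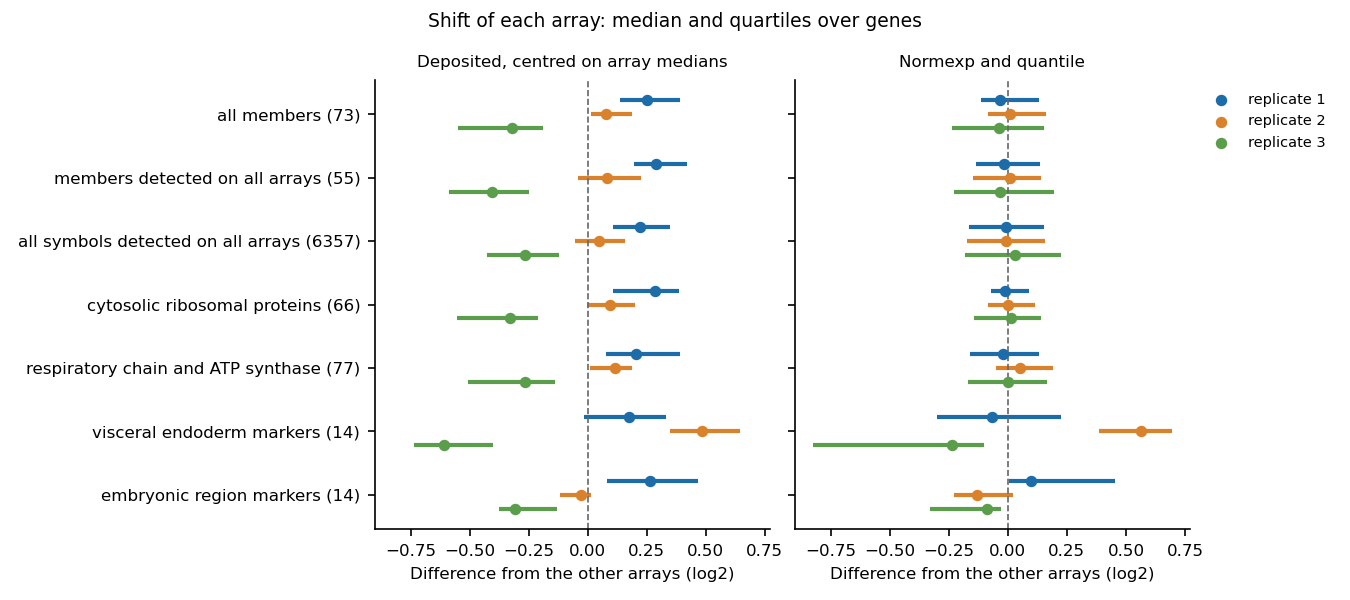
Difference of each array from the mean of the other arrays (log2), before and after normalization. Points are medians and bars quartiles over the genes of each group, with the number of genes in parentheses; on replicate 3 before normalization all members lie at -0.32 and the detected members at -0.41, beside -0.26 for all detected symbols, and the members lie near 0 afterwards.

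Sequences around the starts of these genes were read from the RefSeq promoter table of build GRCm38.p6, which gives 250 bases before and 50 after a start site. It held 64 of the 73 members. Both strands were searched for 3 exact motifs that are known from promoters of nuclear genes for mitochondria. GCGCATGCG is bound by NRF1, CCGGAAGT by ETS factors such as GABP, and AAGATGGC by YY1. The NRF1 motif is nearly palindromic, so a match on one strand can overlap a match on the other. It was found in 7 members (10.9%), against 2.61% of 17491 protein-coding genes in the table and 4.98% of the 3332 of these that were detected on all arrays. The ETS motif was found in 12 (18.8%), against 5.69% and 11.1%, and the YY1 motif in 11 (17.2%), against 3.57% and 6.42%. Together 28 members (43.8%) held at least 1 motif, against 11.1% and 20.9%.

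Most YY1 matches lay after the start site on the gene's own strand. The first base of the 11 YY1 matches lay between -242 and 37 from the start, with a median of 15. The windows below show only matches that lie upstream of the start site. For NRF1 and ETS they were chosen to set members above background beside members at background, and not by brightness alone. All windows are written 5′ to 3′ along the gene's strand with up to 30 bases on each side and none beyond the start site, and the capitals mark the match. For NRF1 they are *Mrpl17* (chr7:105811088-105811128, minus strand), *Mrpl22* (chr11:58171601-58171663, plus strand), and *Mrpl32* (chr13:14613086-14613154, minus strand). For the ETS motif they are *Mrpl27* (chr11:94653706-94653773, plus strand), *Mrpl51* (chr6:125192080-125192147, plus strand), and *Mrps18c* (chr5:100798572-100798639, plus strand). The last shows the motif on the opposite strand, as do both YY1 examples, *Mrps12* (chr7:28741983-28742050, minus strand) and *Mrpl36* (chr13:73330949-73331008, plus strand).
Mrpl17: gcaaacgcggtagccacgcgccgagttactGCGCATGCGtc
Mrpl22: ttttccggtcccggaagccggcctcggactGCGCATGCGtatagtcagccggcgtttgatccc
Mrpl32: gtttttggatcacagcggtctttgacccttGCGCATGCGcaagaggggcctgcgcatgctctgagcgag
Mrpl27: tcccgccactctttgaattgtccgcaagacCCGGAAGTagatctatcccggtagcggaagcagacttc
Mrpl51: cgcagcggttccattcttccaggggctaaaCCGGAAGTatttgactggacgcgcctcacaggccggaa
Mrps18c: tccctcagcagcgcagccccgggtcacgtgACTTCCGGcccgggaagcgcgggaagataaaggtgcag
Mrps12: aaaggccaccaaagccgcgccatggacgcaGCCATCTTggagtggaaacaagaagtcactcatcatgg
Mrpl36: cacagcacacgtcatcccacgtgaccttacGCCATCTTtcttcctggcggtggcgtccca

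No test was made between members with and without these letters. *Mrpl17* and *Mrpl32* both carry the NRF1 motif, the former at 6.06 above background and the latter at -0.51. Of the 28 members with a motif 21 were detected on all arrays and 7 were not, and their median level was 3.64, beside 3.68 for the 36 without any. For the separate motifs the medians were 4.37 with NRF1, 2.98 with ETS, and 4.28 with YY1, and without them 3.53, 4.001, and 3.57. Of the 11 members with the YY1 motif 10 were detected, and of the 12 with the ETS motif 7, where 48 of all 64 members with a promoter were detected. *Mrpl32* and *Mrps27* held 2 different motifs each. A match describes the letters and not binding, and no match says only that these exact letters are not in this window.

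Many members start head to head with another gene. A protein-coding gene on the opposite strand, starting upstream within 1000 bases, was found for 22 of the 64 members (34.4%). The share was 8.48% among all protein-coding genes in the table and 14.3% among those detected on the arrays. The distance between starts ranged from 32 to 756 bases with a median of 136. *Mrps11* and *Mrpl46*, of different subunits, are each other's neighbour at 42 bases, and both were detected, with levels of 3.49 ± 0.13 and 4.45 ± 0.12. *Mrps12* shares its start region with *Sars2*, the mitochondrial seryl-tRNA synthetase, *Mrps27* with *Ptcd2*, and *Mrpl47* with *Ndufb5*, a subunit of respiratory complex I. The YY1 match shown above for *Mrps12* has its first base at -199, beyond the *Sars2* start at a distance of 147 bases. Of 17 neighbours with a row of the same symbol, *Mrps11* and *Mrpl46* themselves among them, 12 were detected on all arrays (70.6%). Among all protein-coding genes with such a neighbour and a row, 44.4% of 1070 were detected. *Mrpl32* lay at background, whereas its neighbour *Psma2*, a proteasome subunit gene, was detected on all arrays.

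A set of 7 mitoribosomal proteins goes under symbols that the rule does not take. *Chchd1* had log2 signals of 12.75, 12.45, and 11.76 and a level of 7.45 ± 0.38 above background. *Aurkaip1* was at 5.80 ± 0.08 and *Dap3*, a GTP-binding protein of the small subunit, at 5.19 ± 0.25. *Ict1*, a peptidyl-tRNA hydrolase built into the large subunit, was at 2.63 ± 0.22, *Mrp63* at 0.97 ± 0.26, and *Ptcd3* at 0.59 ± 0.28. These 6 were detected on all arrays. *Gadd45gip1* was not, with signals of 6.62, 6.60, and 6.48.

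A smaller share of the listed genes that serve the mitoribosome was detected on all arrays than of the members, and no test was made of these shares. By limma 10 of 14 translation factors, 16 of 22 synthetases and amidotransferase subunits, and 14 of 23 assembly factors were above background. For maintenance of mitochondrial DNA and RNA 18 of 20 passed limma, close to the 66 of 73 members, so that this difference depends on the call. Of the 14 translation factors with a row 8 were detected on all arrays, with a median level of 0.72. *Tufm*, the elongation factor that delivers tRNAs, stood out with signals of 11.45, 11.43, and 10.78 and a level of 6.32 ± 0.25. *Gfm2*, a factor for recycling ribosomes, was at 3.05 ± 0.03, and *Tsfm*, the exchange factor of *Tufm*, at 2.51 ± 0.32. *Mtif2*, *Mrrf*, *Mtfmt*, *Guf1*, and *Taco1* were among those not detected on all arrays. Of these, *Mtif2* at 1.28 ± 0.14 and *Mrrf* at 0.53 ± 0.26 passed limma. For aminoacyl-tRNA synthetases and amidotransferase subunits the count was 12 of 22 and the median 1.37. *Gars*, whose products serve the cytosol as well, was the brightest at 6.96 ± 0.05 and yet failed the detection threshold, with 2 probes and detection p-values of 0.331, 0.276, and 0.317. *Qrsl1* was at 4.06 ± 0.45 and *Ears2* at 3.29 ± 0.30, whereas *Aars2*, *Hars2*, *Nars2*, and *Yars2* lay at background.

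Of 23 assembly factors 11 were detected, with a median of 1.93. The brightest were the helicase gene *Dhx30* at 3.44 ± 0.09, *Malsu1* at 3.43 ± 0.26, and the GTPase gene *Noa1* at 3.39 ± 0.04, although *Dhx30* was not called on replicates 2 and 3. *Mtg1*, *Mrm1*, *Mrm2*, *Fastkd2*, and *Ngrn* were on no array above background by detection p. For maintenance of mitochondrial DNA and RNA the count was 14 of 20 and the median 1.67. *Polrmt*, the mitochondrial RNA polymerase, was at 4.29 ± 0.10, *Hsd17b10*, a subunit of mitochondrial RNase P, at 3.94 ± 0.27, and *Slirp* at 3.80 ± 0.52. *Pnpt1* and *Mgme1* lay at background. *Tfb2m*, *Ssbp1*, and *Twnk* were not detected on all arrays but passed limma, at 0.45 ± 0.28, 1.47 ± 0.28, and 1.29 ± 0.20.

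Among 10 regulators of nuclear genes for mitochondria 4 were detected. *Pprc1*, a coactivator of the PGC-1 family, had log2 signals of 9.57, 9.41, and 9.20 and a level of 4.37 ± 0.04. *Nrf1* was at 2.89 ± 0.15 and *Esrra* at 1.57 ± 0.37. *Gabpa*, an ETS factor, had signals of 6.64, 6.64, and 6.39 and was detected on no array. *Yy1* had signals of 6.73, 6.45, and 6.45 and was detected on replicate 1 only. *Ppargc1a*, *Myc*, and *Mycn* were detected on none. Across the 7 other mitoribosomal proteins and all of these lists, the regulators included, 55 of 96 genes were detected.

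**Figure D4:**
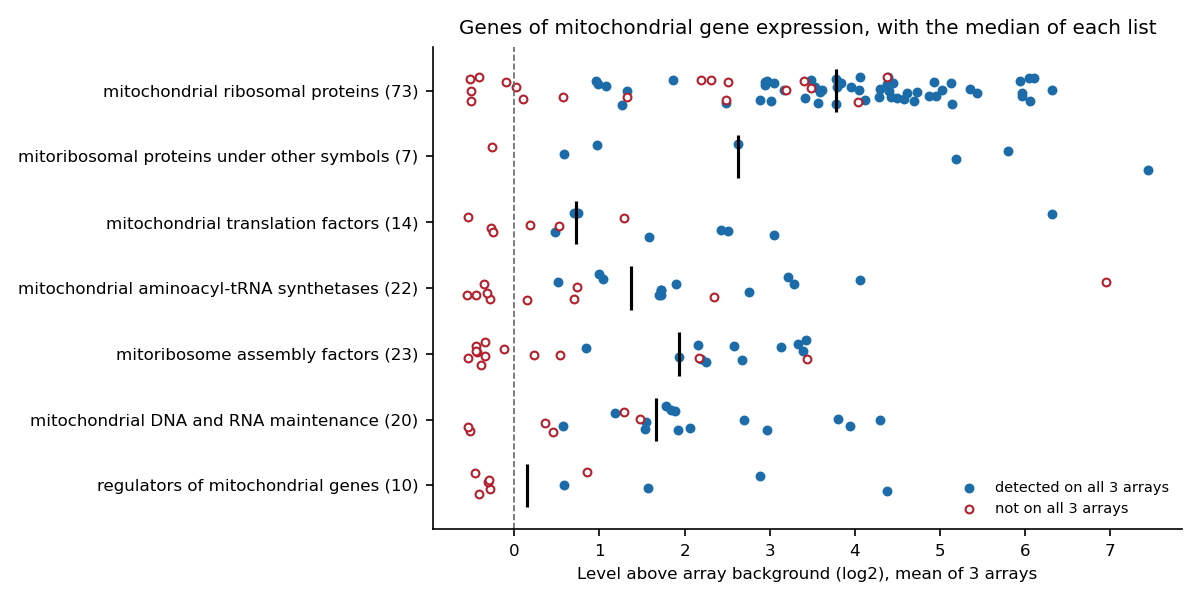
Level above the array background (log2, mean of 3 arrays) of each gene in the members and in 6 lists of mitochondrial gene expression. Filled points were detected on all 3 arrays, open points were not, and the vertical bars are medians, 3.78 for the members and between 0.15 and 2.63 for the other lists.

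Cytosolic ribosomal proteins and the respiratory chain gave a comparison with other large complexes. Of 66 cytosolic ribosomal protein genes 52 were detected on all arrays (78.8%), with a median level of 6.53 above background. Of 77 nuclear genes of the respiratory chain and ATP synthase 55 were detected (71.4%), with a median of 4.44. The detected share of the members, 75.3%, lay between the other two, and their median level was the lowest of the 3 groups. No test was made of these differences, and probes of different genes differ in brightness for the same amount of RNA.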

How the data were processed

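RNA of 3 arrays (1 group) was analysed. The authors deposited log2 signals per gene symbol, not normalized between arrays, with bead numbers and bead standard errors on a linear signal scale, and the detection p-value was also deposited. The submitters' processing notes name Partek, and its settings are not given in the sources used here. All columns were assigned to a sample. Detection p was counted at 0.01, the threshold of the study. The smallest number of probes per symbol was inferred from bead means and from the steps of the detection p (tolerance 0.05 of 1 in 936). For levels, the normexp model was fitted to the detection p of 22007 single-probe symbols, and corrected signals plus an offset of 16 were quantile normalized. An array's background was the lowest level of such symbols with a detection p above 0 and under 0.01. It was 4.69, 4.81, and 5.06. limma (lmFit, eBayes, one-sided, adjusted p under 0.05) tested levels minus background over 30854 symbols. It gave every gene the standard error 0.15, so its p-values treat the spread as known and measure only differences between these arrays.

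Members and lists were chosen with earlier results of these data known. Named genes were the members not detected or not past limma, the 12 brightest, the 8 with the largest range, the *Mrps18* genes, the other mitoribosomal proteins, and of each list the 3 brightest and up to 5 not detected. Older symbols were matched through RefSeq. Functions were tested on simulated data. Alternatives were other detection thresholds (0.05 and 0.001), fewer arrays, other normalizations, offset, and background levels, symbols with 1 probe, and leaving out each replicate. Tests ran in limma 3.58.1 under R 4.3.3, and counts in Python 3.11.15 with pandas 2.3.3 and scipy 1.17.1.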

Additional observations from a re-analysis of the deposited data

How the results depend on the processing

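No paired analysis was possible because the 3 arrays form a single group. The number of members detected on all arrays, 55, was 59 at a threshold of 0.05 and 52 at 0.001, 62 on at least 2 arrays and 66 on at least 1, and 55 to 62 without single replicates, the most without replicate 3. Counting only members with every probe under 0.01, an alternative chosen after seeing the data, gave 51, and 1-probe symbols alone gave 38 of 42. Over all symbols 33% passed on at least 1 array, and 20.6% on all 3. The limma count of 66 fell to 38 for symbols with 1 probe, because fewer members were tested. It was 64 to 69 otherwise, 65 to 68 of it without single replicates. The 69 came with the background level taken from symbols at a detection p above 0.5. With it, all symbols past limma rose from 7961 to 13604. They numbered 7219 to 8651 in the other settings that tested every symbol. The median level above background, 3.78, was 2.23 with quantile normalization alone, 2.23 with deposited signals centred on array medians, 2.78 with an offset of 50, and 4.35 with the background level taken from symbols at a detection p above 0.5. It was 3.64 to 3.80 without single replicates.

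The median shift between arrays, -0.03, 0.01, and -0.04 on replicates 1 to 3, was 0.27, 0.15, and -0.47 with median scaling and 0.25, 0.077, and -0.32 with centred deposited signals, since neither equalizes the arrays' distributions. Over symbols with 1 probe it was 0.040, 0.028, and -0.072. Without single replicates it was -0.046 to 0.015, 0.046 to 0.056, and -0.056 to -0.015. Of 626 levels of single members under 9 alternatives, 618 kept their side of the threshold. In 9 of these the sign changed without a call: *Mrpl19*, *Mrpl21*, *Mrpl32*, and *Mrps14* became 0.050 to 0.15 with the other background level, and *Mrpl39*, *Mrpl45*, and *Mrpl51* lay between -0.19 and 0.052 without single replicates. *Mrpl16* (deposited signals) and *Mrps15* (deposited signals, and without replicate 2) lost the call, *Mrpl39* and *Mrpl45* gained it without replicate 3 and with the other background level, and *Mrpl51* turned to 0.47 with the latter. The causes were not tested. The count over the mitochondrial lists, 55, ranged from 48 to 69 over all alternatives. Signals near background limit what 3 arrays can show for the lowest members.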
